A study of Drosophila melanogaster with 2 samples.

Results

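Among the CG8765-eGFP binding sites mapped in Drosophila melanogaster embryos, 348 of 2132 peaks (16.3%, exact 95% binomial interval 14.8 to 18.0) had their summit at or close to the shared upstream region of 2 protein-coding genes. The 2 genes are transcribed away from each other. A peak entered this set when its summit lay within 500 bp of a minus-strand start site and of a plus-strand start site to its right. These start sites had to be at most 500 bp apart. The summit also had to be upstream of the nearest coding start site of any gene, which need not be 1 of these 2. It lay between these 2 in 340 of the 348 peaks. The peaks came from the conservative list of the series, which held 2167 intervals on build dm6, of which 2132 lay on the major chromosome arms. The embryos were whole animals aged 0 to 8 hours from 1 transgenic line, strain CG8765-GFP, carrying the CG8765 gene product with a tag of enhanced green fluorescent protein (eGFP). Chromatin immunoprecipitation followed by sequencing (ChIP-seq) was run with an antibody against the tag on 2 biological replicates, and there was no second genotype, stage or treatment. The control experiment named in the labels was not used here. Whole embryos mix many cell types, so the lists do not say in which cells a site was bound, and the depth behind each peak is unknown.

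Genes that start back to back share 1 nucleosome-poor stretch of DNA, from which RNA polymerase leaves in both directions. Such divergent arrangements are common in the compact fly genome and are often formed by genes that most cells use. Their promoters frequently carry core promoter motifs such as the DNA replication-related element (DRE), the site of the factor DREF, which overlaps the shorter site of the insulator protein BEAF-32. Developmentally regulated fly promoters more often carry GAGA repeats, which GAGA factor binds.

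The sequences between the 2 start sites are shown for 4 of the 6 members with the highest signal, those whose start sites lay at most 300 bp apart, because they show where the summit fell. They read 5′ to 3′ on the plus strand of dm6, from the minus-strand start site at the left end to the plus-strand start site at the right end, and the 21 capitals are centred on the summit. All 4 were annotated as intergenic.
CG7601/CIA30 (chr3R:29736745-29736965): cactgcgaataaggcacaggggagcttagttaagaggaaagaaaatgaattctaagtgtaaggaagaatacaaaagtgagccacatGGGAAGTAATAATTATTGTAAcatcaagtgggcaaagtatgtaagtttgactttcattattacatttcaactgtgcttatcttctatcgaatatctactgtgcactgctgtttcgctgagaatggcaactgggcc
Tcs5/CHMP2B (chr3L:5139395-5139619): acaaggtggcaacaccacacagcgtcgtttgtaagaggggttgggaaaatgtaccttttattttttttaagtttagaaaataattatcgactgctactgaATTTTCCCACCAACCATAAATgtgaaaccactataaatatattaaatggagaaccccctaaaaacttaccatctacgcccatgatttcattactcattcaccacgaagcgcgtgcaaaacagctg
Art3/mRpS10 (chr3R:15229408-15229665): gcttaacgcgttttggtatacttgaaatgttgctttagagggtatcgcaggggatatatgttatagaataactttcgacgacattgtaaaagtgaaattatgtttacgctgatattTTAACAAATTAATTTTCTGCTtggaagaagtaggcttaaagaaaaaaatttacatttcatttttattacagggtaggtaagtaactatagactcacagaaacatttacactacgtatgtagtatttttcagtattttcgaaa
Atat/Shc (chr3L:9426758-9427010): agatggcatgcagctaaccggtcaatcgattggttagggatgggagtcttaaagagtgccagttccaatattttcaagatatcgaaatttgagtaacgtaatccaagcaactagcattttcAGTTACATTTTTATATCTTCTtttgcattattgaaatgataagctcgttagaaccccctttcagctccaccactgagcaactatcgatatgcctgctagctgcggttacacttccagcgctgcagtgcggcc
The summits stood at base 97 of 221, base 111 of 225, base 127 of 258 and base 132 of 253, that is, close to the middle of each stretch. G and C made up 38.5%, 38.2%, 30.2% and 43.1% of the bases.

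A further pair of stretches shows motifs whose shares are compared further on, with the motif in capitals. The stretch of fws/Lamtor3 holds a DRE at bases 190 to 197 of 203, near the Lamtor3 start. The stretch of Phf5a/CG31638 holds Ohler motif 7 at bases 191 to 197 of 219.
fws/Lamtor3 (chr2L:17481029-17481231): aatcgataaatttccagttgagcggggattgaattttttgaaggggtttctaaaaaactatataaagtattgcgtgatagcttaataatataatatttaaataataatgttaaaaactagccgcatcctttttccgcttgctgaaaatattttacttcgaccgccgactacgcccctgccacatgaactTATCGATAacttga
Phf5a/CG31638 (chr2L:6490843-6491061): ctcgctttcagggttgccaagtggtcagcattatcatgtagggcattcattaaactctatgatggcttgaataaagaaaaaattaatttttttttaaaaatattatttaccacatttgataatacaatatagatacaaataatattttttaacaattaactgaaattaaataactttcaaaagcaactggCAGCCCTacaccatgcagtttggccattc
The summits stood near the middle of both stretches (base 105 of 219 in Phf5a/CG31638), so in both the motif lay well to the side of the summit.

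Of the 1995 divergent pairs of coding genes on the arms, 336 held a member peak, which is 16.8% of all pairs (15.2 to 18.6). Counting every conservative summit within 500 bp of both start sites, downstream ones included, 440 pairs were occupied, or 22.1% (20.3 to 23.9). Within such pairs the summits were mostly upstream, 348 of 421 (82.7%, 78.7 to 86.2). The other 73 lay at or downstream of their nearest coding start site. The upstream share was nearly the same over all peaks within 500 bp of any coding start site, 897 of 1084, so it was not particular to pairs. The members made up 32.1% of the 1084 peaks within 500 bp of any coding start site and 38.8% of the 897 upstream ones. The remaining 549 upstream peaks, at promoters without such a partner, serve as the comparison set and are called single promoters here.

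Occupancy differed with the distance between the start sites. Among pairs spaced over 200 and up to 300 bp, 146 of 542 (26.9%, 23.2 to 30.9) held a member. The share was 21.2% of 400 pairs at up to 400 bp and 13.9% of 267 pairs at up to 500 bp. In closely spaced pairs it was 7.69% of 429 pairs at 1 to 100 bp and 9.80% of 357 pairs at over 100 and up to 200 bp. The requirement that a summit be upstream leaves little room between close start sites, so every summit was counted as well. On that count, the shares from the closest to the widest spacing were 17.2%, 15.97%, 29.9%, 27.2% and 14.2%. The stretch searched, within 500 bp of both start sites, shortens as the spacing grows, and no allowance was made for this. Pairs spaced over 200 and up to 300 bp still exceeded all other pairs by 10.8 percentage points, with a Newcombe 95% interval of the difference from 6.50 to 15.2. Against pairs spaced 1 to 100 bp the difference was 12.6 points (7.29 to 17.8). These intervals cover the counting of pairs and not the spread between embryos, and the spacing class was singled out after its value was seen.

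**Figure D1:**
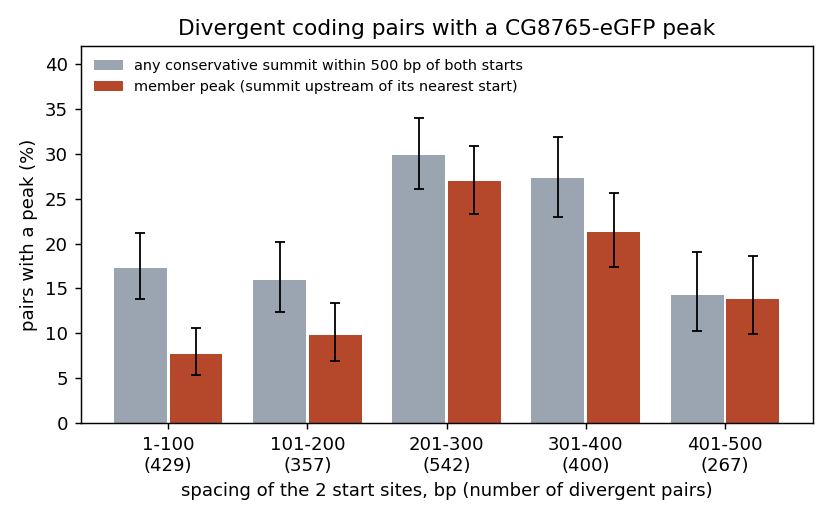
Share of divergent coding pairs with a peak (y axis, percent) by the spacing of their start sites (x axis, bp, with the number of pairs in parentheses), where grey bars count any conservative summit within 500 bp of both starts, red bars count member peaks and lines are exact 95% binomial intervals. The bars are highest between 200 and 300 bp, 29.9% and 26.9%.

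The summit lay between the 2 start sites in 340 of 348 members (97.7%, 95.5 to 99.0), which the rule largely sets. Within that stretch the rule sets no position, except that summits downstream of a nearer, further start site inside it were dropped. Of the 340 summits, 222 (65.3%, 59.97 to 70.3) lay in the central 50% of the stretch. The median distance was 49.25 bp from the middle, with quartiles of 20 and 100. From the nearest start site it was 87.5 bp (quartiles 53.75 and 117), and from the farther one 193.5 bp. At single promoters the summit lay farther out, at a median of 145 bp upstream (quartiles 87 and 231), and no partner limits it there. No preference for a strand was detectable, since the minus-strand start was the nearer one in 163 of 340 members (47.9%, 42.5 to 53.4). Spacing here is that of the 2 start sites assigned to each summit, which can be wider than the pair's smallest spacing used for occupancy. At 1 to 100 bp there were thus 18 members, against 33 pairs with a member by the smallest spacing. At over 200 and up to 300 bp 115 of 150 summits (76.7%, 69.1 to 83.2) were in the central 50%, at a median of 35.5 bp from the middle. At over 100 and up to 200 bp 22 of 31 (71.0%, 52.0 to 85.8) were, at a median of 17 bp, and these intervals overlapped. At over 400 bp 24 of 47 (51.1%, 36.1 to 65.9) were, at a median of 107 bp from the middle and 104 bp from the nearest start. At over 300 and up to 400 bp 57 of 100 (57.0%, 46.7 to 66.9) were, and at 1 to 100 bp 4 of 12 (33.3%, 9.92 to 65.1). The intervals at 1 to 100 bp, at over 300 and up to 400 bp and at over 400 bp held 50%. Across the spacing classes from 200 to 500 bp the median distance to the nearest start was thus 90, 100 and 104 bp, while that to the farther one went from 163 to 259 and 328 bp.

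**Figure D2:**
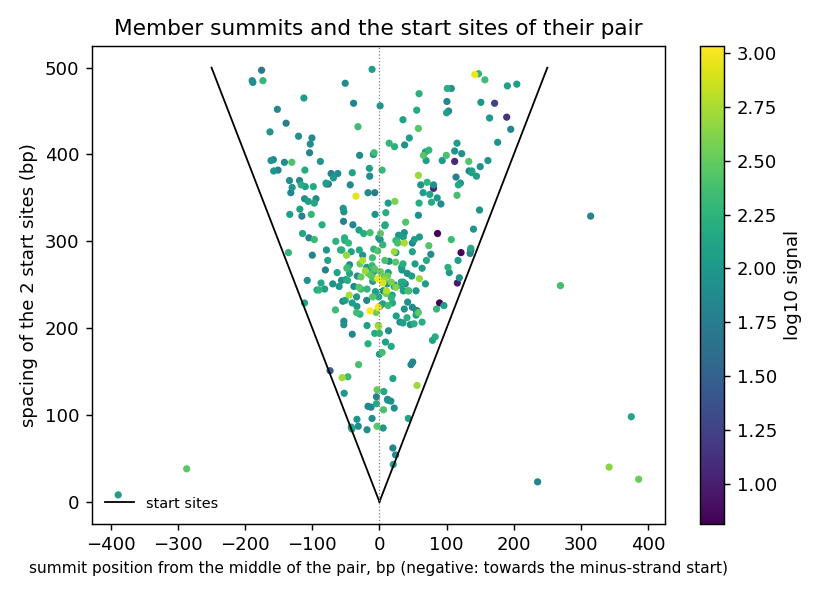
Position of each of the 348 member summits relative to the middle of its pair (x axis, bp, negative towards the minus-strand start) against the spacing of the pair's start sites (y axis, bp), coloured by log10 of the signal, with black lines at the start sites. Of these summits, 340 fall between the lines, and many lie near the middle at spacings of 200 to 300 bp.

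The annotation placed 273 member summits (78.4%) outside any gene, 35 in introns and 40 in exons. The 8 summits not between their start sites lay to one side of both, upstream of a further start site that was nearer to them. The strongest of them was CG5757/CG5098 on 2R (signal 436, start sites 40 bp apart). Fer1HCH/Fer2LCH, the pair that encodes the heavy and light chains of the iron store ferritin, was another (signal 135, start sites 98 bp apart).

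The signal of a peak is the value in the authors' deposited list and has no stated unit, so it is compared only within a list. It ranged from 6.53 to 1079 in the members, with a median of 114 (quartiles 85.0 and 182). At single promoters the median was 106 (78.8 and 180) and over all peaks 105 (77.8 and 163), so the members' median was 1.07 times that of single promoters and the quartile ranges overlapped almost fully. Among peaks above the median signal of the list the ratio was 0.927, in the other direction. In the own list of replicate 1, 271 members had a median of 60.1 against 57.0 at single promoters and 58.2 over all. In that of replicate 2, 275 members had a median of 77.5 against 71.9 and 67.6. There were 23 members among the 100 strongest peaks of the list and 6 among the strongest 25. Median signal was highest, at 134, for members whose own 2 start sites were over 200 and up to 300 bp apart, against 109 and 122 at closer spacing and 104 and 95.6 at wider spacing.

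The strongest member lay between CG7601 (FBgn0027583) and CIA30 (FBgn0039689), an assembly factor of respiratory complex I, at chr3R:29736704-29736976 with a signal of 1079. It had 557 in replicate 1, rank 5 of that list, and 543 in replicate 2, rank 12. Next came Tcs5 (FBgn0035590), a kinase of the KEOPS complex that modifies tRNA, with CHMP2B (FBgn0035589), a subunit of the membrane-remodelling ESCRT-III complex, at chr3L:5139364-5139626. Its signal was 1018, with 474 and 581 in the replicates, at ranks 11 and 10. The genes of 2 mitochondrial small ribosomal subunit proteins followed: mRpS23/CenG1A at 940 (ranks 14 and 15) and Art3/mRpS10 at 916 (ranks 15 and 17). The summit of mRpS23/CenG1A lay 388 bp from the mRpS23 start and 104 bp from that of CenG1A. CG5611/Mtl, with a Rac-family GTPase, had 881 (ranks 22 and 13), and Atat/Shc, a tubulin acetyltransferase with a signalling adaptor, had 827 (ranks 16 and 23). These 6 members therefore stood within the first 23 ranks in both replicates, and their signals were separated by a gap from the seventh, Mppe/pds5 at 602.

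The next 14 had signals from 436 to 602 and held genes of many functions. Mppe/pds5 includes pds5, a cohesin-associated protein. CG3437/CG3552 had 599, Reps/l(2)gd1, with a regulator of endosomal sorting, 565, and CG13390/CG17294 550. In fws/Lamtor3 (542) a subunit of the Golgi COG complex faces one of the lysosomal Ragulator complex. Mnat9/CG1792 had 517. In brm/Arl1 (506) the ATPase of the Brahma chromatin remodeller faces a Golgi GTPase. Mkk4/SLIRP2 had 504 and Fbw5/CG9147 503, with a MAP kinase kinase and an F-box protein. DUBAI/Tmem18 had 475, and CG10147/Bulli 467. Lon/PIG-F (464) joins a mitochondrial protease to an enzyme of GPI anchor synthesis. Their ranks lay between 31 and 228 in replicate 1 and between 37 and 161 in replicate 2.

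Most members were 324 bp wide, 287 of 348 (82.5%), against 83.7% of all peaks, so that width is mainly a property of the list. The 20 strongest were narrower, from 188 to 273 bp with a median of 226.5 bp. A signal below 20 was found in 9 members (63 peaks in the whole list), and each of these 9 had another member of its own pair 200 to 229 bp away. Altogether 324 pairs held 1 member and 12 held 2. In 11 of these 12 the summits were 200 to 229 bp apart, and in dup/SRPK they were 667 bp apart. By summed signal the leading double pairs were Bdp1/CG6565 (324 and 7.14), CG4049/CG3253 (248 and 10.6), Nup93-2/CG3817 (113 and 83.6), HP4/CG8209 (141 and 9.84) and Kap-alpha3/Son (131 and 6.71). Bdp1 is a subunit of the RNA polymerase III factor TFIIIB, Nup93-2 a nucleoporin and Kap-alpha3 a nuclear import receptor. In 4 of these 5 the second peak was thus far weaker than the first, and whether it marks a site of its own was not tested.

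Members recurred in the replicates' own thresholded lists more often than single-promoter peaks did. Replicate 1 held an overlapping peak for 252 members (72.4%), replicate 2 for 248 (71.3%), and both for 204 (58.6%, 53.2 to 63.8), against 46.2% of all conservative peaks. At single promoters 262 of 549 (47.7%, 43.5 to 52.0) overlapped both, a difference of 10.9 points (4.19 to 17.4). For each replicate alone the difference was smaller, and its interval held 0: 5.93 points (-0.302 to 11.9) in replicate 1 and 5.33 points (-0.952 to 11.4) in replicate 2. Replicate 1 alone supported 48 members, replicate 2 alone 44, and neither supported 52 (14.9%, 11.4 to 19.1). Over all conservative peaks neither replicate supported 17.3%, which lies inside that interval. The signal derives from the alignments of both replicates, so it is not independent of overlap with their lists. Overlap with both was more frequent at higher signal, from 12.6% of the weakest 87 members over 40.2% and 89.7% to 92.0% of the strongest 87. One strong member went against this: eIF4EHP/CG18428, with a cap-binding repressor of translation, had a signal of 499 and ranks 228 and 37 in the ranked lists but overlapped no thresholded peak of either replicate.

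In the unthresholded ranked lists 330 members held a summit in both replicates, 336 in replicate 1 and 338 in replicate 2. Their median rank was 1178.5 among 106449 peaks in replicate 1 and 893 among 125328 in replicate 2. The ranks had a Spearman correlation of 0.683 (n = 330), given as a description because the members had been selected in both replicates together. The replicate summit lay a median of 15.5 bp from the member summit in replicate 1 and 12 bp in replicate 2. The median to the nearest start site was 87.5 bp. Only ranked summits inside the member's own interval were taken, the strongest where there were several, so these offsets were capped in advance.

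**Figure D3:**
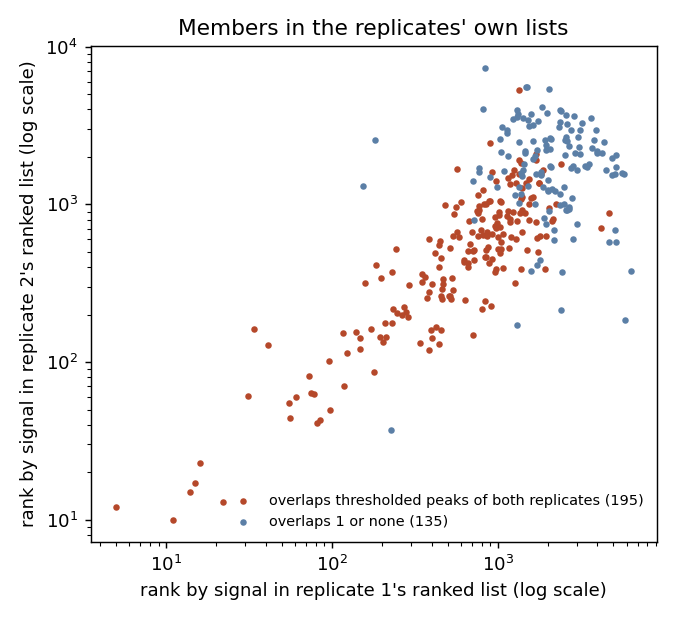
Rank by signal in the ranked list of replicate 1 (x axis, log scale) against that in replicate 2 (y axis, log scale) for the 330 members with a summit in both, red where thresholded peaks of both replicates overlap the member and blue otherwise. The strongest members sit together at low ranks in both lists (Spearman 0.683 over all points), and the spread is widest among the weak ones.

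The X chromosome held few members. On X 27 of 289 divergent pairs had one (9.34%, 6.25 to 13.3), against 309 of 1706 on the autosomes (18.1%), a difference of -8.77 points (-12.2 to -4.49). Among the autosomal arms the shares were 15.98% on 2L, 15.6% on 2R, 20.4% on 3L and 19.9% on 3R, and none of the 7 pairs on the small chromosome 4 had one (0 to 40.96%). Counting any summit, the difference was -9.61 points (-13.7 to -4.74). The median spacing of pairs was 245 bp both on X and on the autosomes. Among pairs spaced over 200 and up to 300 bp the shares were 14.1% and 29.3% (-15.2 points, -22.5 to -5.40). The same held in each replicate's own thresholded list, at -7.38 points (-10.3 to -3.52) in replicate 1 and -8.08 (-11.0 to -4.26) in replicate 2. Coding genes outside divergent pairs did not show it: 5.58% of 1630 on X and 4.38% of 8500 on the autosomes had an upstream peak, a difference of 1.21 points in the other direction (0.0948 to 2.50). Of the members 7.76% lay on X, of the single-promoter peaks 19.5% (-11.7 points, -16.0 to -7.21), and of all peaks 18.0%. The median signal of the members on X was 87.7, against 116 on the autosomes. The strongest of them were Stt3A/bves (328), TH1/mei-41 (273) and Fbxl4/Dus2 (263). This comparison was made after the values for each arm were seen.

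Sequence motifs were counted from 100 bp before to 100 bp after each summit, on both strands, for 14 motifs. Members differed from single promoters in 9 of them by an interval that left out 0, with no adjustment for the number of motifs. The largest excess was for the BEAF-32 site CGATA, found at 47.7% of members (42.3 to 53.1) against 33.7% of single promoters and 28.9% of all peaks, a difference of 14.0 points (7.41 to 20.5). CG7601/CIA30 and Tcs5/CHMP2B were the strongest members that held it. The DRE, TATCGATA, which contains CGATA, was found at 40 members (11.5%, 8.34 to 15.3) against 6.01% and 4.13% of all peaks (5.48 points, 1.75 to 9.63), with Atat/Shc and fws/Lamtor3 the strongest. A further 126 members held CGATA without a full DRE. The homeodomain core TAATTA was found at 24.1% of members against 14.8% of single promoters and 15.1% of all peaks (9.38 points, 4.10 to 14.9), again with CG7601/CIA30 and Tcs5/CHMP2B.

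TATAAA, the TATA box, stood in 41.4% of member windows against 32.6% and 32.3% of all peaks (8.77 points, 2.31 to 15.2), with Tcs5/CHMP2B and Atat/Shc first. The run AAAAAA was in 44.8% against 38.1% and 42.6% of all peaks (6.76 points, 0.164 to 13.3), led by Tcs5/CHMP2B and Art3/mRpS10. Ohler motif 7, CAGCNCT, one of a numbered series of fly core promoter motifs, was in 19.8% against 13.7% and 11.1% of all peaks (6.17 points, 1.21 to 11.4), and DUBAI/Tmem18 and Phf5a/CG31638 were the strongest holders. The E-box CAGCTG was in 14.9% against 10.4% and 9.76% of all peaks (4.56 points, 0.164 to 9.28), with CG3437/CG3552 and Mnat9/CG1792. A motif was lower in members in 2 cases. GAGAG was in 14.9% of members against 29.1% of single promoters and 25.7% of all peaks (-14.2 points, -19.4 to -8.69), and CG5611/Mtl and Mppe/pds5 were the strongest members that had it. Ohler motif 8, GGCANCG, was in 6.32% against 11.8% and 7.83% of all peaks (-5.52 points, -9.16 to -1.60), with RpL32/CG7943 and FucTB/scat. For Ohler motifs 1 and 6, the initiator TCAGT, the Zelda site and the GATA site the interval held 0. The initiator was lower in members by an interval without 0 in the own list of replicate 1 (-7.53 points, -14.4 to -0.393) and in that of replicate 2 (-8.72 points, -15.2 to -1.84). Base composition moved with these motifs: G and C made up a median of 33.8% of member windows, 37.3% at single promoters and 36.8% over all peaks. Distance to the start site differed as well, as given above, and the part of both in the motif shares was not tested. The differences were smaller in a narrower window, which also holds fewer matches. With 50 bp on both sides of the summit, 2 of the 14 motifs differed by an interval without 0, TAATTA (5.99 points, 1.78 to 10.6) and CAGCTG (3.23 points, 0.448 to 6.50). There the difference was 1.32 points for the DRE (-1.22 to 4.31), 4.08 for CGATA (-1.55 to 9.90) and -3.98 for GAGAG (-7.82 to 0.170). With 200 bp on both sides the differences were larger for several motifs: 11.6 points for the DRE (6.87 to 16.5), 15.1 for CAGCTG (9.001 to 21.3) and -27.8 for GAGAG (-33.8 to -21.4), and Ohler motif 1 differed too (7.60 points, 3.61 to 11.98). In the list of replicate 1 alone the difference was 11.7 points for CAGCTG, 10.99 for CAGCNCT, 1.88 for AAAAAA and -3.08 for GGCANCG, the latter 2 with intervals that held 0. With limits of 300 bp for spacing and distance, 4 motifs differed: the TATA box, the A run, the GAGA repeat and Ohler motif 8.

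The members were also set against the 1403 divergent pairs without any thresholded peak within 1000 bp. For this, windows of the same length were centred on the middle of each pair. There the DRE was in 8.04% of 336 pairs with a member and 12.2% of pairs without a peak (-4.15 points, -7.21 to -0.388), and CGATA also was in fewer pairs with a member (-6.85 points, -12.6 to -0.903). TATAAA was 9.54 points higher (3.64 to 15.4) and TAATTA 7.33 points higher (2.38 to 12.7), whereas the initiator TCAGT was in 22.9% against 34.1% (-11.2 points, -16.0 to -5.78). Pairs with a member also had the lower share for Ohler motif 1 (-5.22 points, -7.28 to -2.47), the GATA site (-5.67 points, -8.97 to -1.69) and Ohler motif 8 (-3.15 points, -5.52 to -0.0330). For the other 6 motifs the interval held 0. Because the groups differed in spacing (median 265 bp with a member, 236 bp in all other pairs), the comparison was repeated in pairs spaced over 200 and up to 300 bp. For 13 of the 14 motifs the interval then held 0, with differences of 0.604 points for the DRE (-4.55 to 7.01) and 3.39 for CGATA (-6.11 to 12.95). The exception was the initiator, in 18.5% of 146 pairs with a member and 32.8% of 345 without (-14.3 points, -21.7 to -5.74). Composition at the middle had a median of 31.3% G and C in both groups at that spacing, against 31.3% and 33.8% over all spacings.

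**Figure D4:**
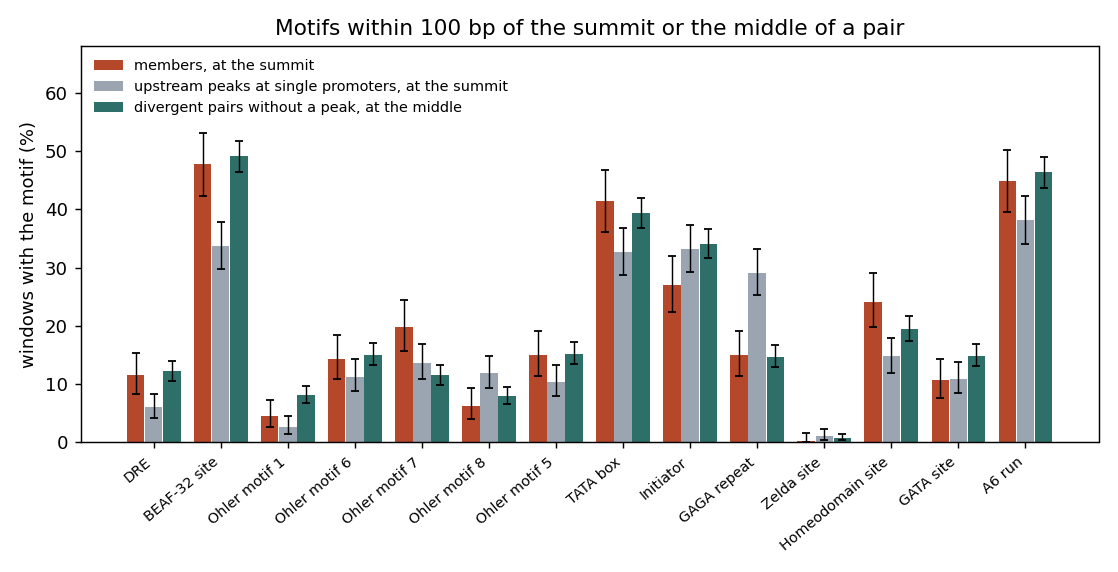
Share of windows, 100 bp on both sides, that hold each of 14 motifs (y axis, percent) for 348 members at the summit (red), 549 upstream peaks at single promoters at the summit (grey) and 1403 divergent pairs without a peak at the middle (green), with exact 95% binomial intervals as lines. Members exceed single promoters most for the BEAF-32 site (47.7% against 33.7%) and fall below them most for the GAGA repeat (14.9% against 29.1%). Pairs without a peak had 49.1% and 14.7%, but in windows at the middle and not at a summit. In windows at the middle, not drawn, pairs with a member had 42.3% and 13.7%.

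Although the DRE was commoner in members than at single promoters, it was rarest in the strongest members. From the strongest to the weakest 87 by signal the shares were 4.598%, 9.20%, 12.6% and 19.5%, a difference of -14.9 points between the ends (-24.9 to -5.32). Among members above the median signal of the list, the difference between the ends was -5.88 points and its interval held 0 (-18.1 to 5.95). Single-promoter peaks, split into 4 the same way, had 2.92%, 3.65%, 7.25% and 10.2% in the same order. Median signal was 88.2 for members with a DRE and 118 for those without. This order was seen within spacings of over 200 and up to 300 bp (105 in 18 members against 140 in 133). It was also seen at over 300 bp (86.0 in 17 members against 105 in 131). In the replicates' ranked lists members with a DRE stood lower too, at median ranks of 1481 against 1137.5 in replicate 1 and 1285.5 against 868 in replicate 2. All 14 motifs were looked at in this way, and the ends also differed by an interval without 0 for CGATA (-17.2 points, -31.0 to -2.43), Ohler motif 1 (-9.20, -17.1 to -3.05) and the GATA site (-12.6, -22.3 to -3.35), each rarer in strong members. The gene of the DRE-binding factor, Dref, had a member of its own: Dref/RpL13 was a member with a signal of 105, without a full DRE at its summit.

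Composition changed with signal as well. Median G and C in the motif window was 31.8%, 34.3%, 34.8% and 36.3% from the strongest to the weakest 87 members, and in the same order of single promoters, split into 4 by signal, 34.8%, 35.3%, 37.3% and 40.8%. Right at the summit the strongest 87 members had 25.7% ± 1.40 (SE, n = 87) G and C in 21 bases, against 36.6% ± 1.49 (SE, n = 87) in the weakest 87 and 37.3% ± 0.674 (SE, n = 549) at single promoters. At 500 bp to the left the values were 52.5%, 52.7% and 42.9%, and at 140 bp to the left, where both member sets were below single promoters, they were 39.5%, 34.7% and 42.4%. The standard errors are over peaks, not embryos.

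**Figure D5:**
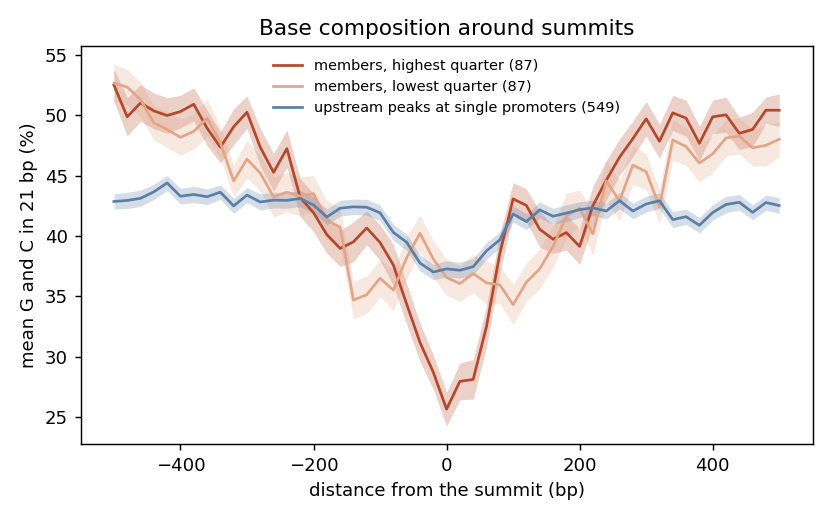
Mean G and C content in windows of 21 bp (y axis, percent) by distance from the summit along the plus strand (x axis, bp) for the 87 strongest and 87 weakest members and for 549 upstream peaks at single promoters, with shading of 1 standard error over peaks. The strongest members have a narrow minimum of 25.7% at the summit, whereas the weakest have 36.6% there and their lowest values to both sides, 34.7% at 140 bp to the left and 34.3% at 100 bp to the right.

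Of the 3815 coding genes in divergent pairs 672 had a member peak, a background of 17.6%, and 204 of them carry only a CG number. Across 16 gene classes 82 of 382 genes in divergent pairs (21.5%, 17.5 to 25.9) had one. Of 34 cytoplasmic ribosomal protein genes in divergent pairs, 13 had a member (38.2%, 22.2 to 56.4), led by RpL32 in RpL32/CG7943 (307) and RpL34b in RpL34b/CG8132 (219). Mitochondrial ribosomal proteins had 11 of 54 (20.4%), with mRpS23 (940) and mRpS10 (916) above all other genes of the class. A gene was counted by its pair, whichever start the summit was nearer, and for mRpS23 the CenG1A start was the nearer one. Translation factors had 4 of 21, with eIF4EHP (499) and the termination factor eRF1 (110), and aminoacyl-tRNA synthetases 3 of 22, with GluProRS (353) and IleRS (169).

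The other housekeeping classes lay on both sides of the background with wide intervals. Oxidative phosphorylation had 6 of 39 (15.4%), led by the complex I subunit gene ND-MWFE (218) and the complex IV gene COX5A (144). The proteasome had 3 of 21, with the lid subunits Rpn6 (96.7) and Rpn5 (74.4), nuclear pore genes 2 of 18, with Nup37 (216) and Nup93-2 (113), and chaperones 1 of 11, Hsc70-4 (148). Vesicle sorting had 8 of 36 (22.2%), led by CHMP2B (1018) and the COPI coat gene alphaCOP (280).

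Among genes of the nucleus, Mediator and TFIID had 7 of 26 (26.9%, 11.6 to 47.8), with MED27 (248) and Taf5 (184), RNA polymerase subunits 4 of 19, with Polr2J (186) and Polr2B (124), and splicing 6 of 25, with Sf3b6 (142) and Slu7 (97.6). DNA replication and the cell cycle had 6 of 28 (21.4%), led by the checkpoint kinase genes mei-41 (273) and tefu (148). Insulator and promoter-binding proteins had 4 of 10, Cp190 (221), Dref (105), M1BP and gfzf, with an interval of 12.2 to 73.8% that held the background. Polycomb and trithorax genes had 5 of 20, among them brm (506) and Bap60 (124), both subunits of the Brahma complex. Embryonic patterning regulators barely entered: of 54 such genes 1 stood in a divergent pair, and it had no member. Of the 16 classes, only the cytoplasmic ribosomal proteins had an interval that left out 17.6%, with no adjustment for the number of classes.

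At the limits of the rule, the widest-spaced members were Pax/Alp12 (498 bp, signal 116), SH3PX1/vsg (497 bp, 52.5) and IntS6/Rtel1 (493 bp, 177). Just outside were PNPase/Gprk2 (505 bp, 606), trem/idc (514 bp, 104) and CG2993/sgll (518 bp, 150). The greatest distance of a member summit to a start site of its pair was 479 bp, in cue/Psa. Of the summits upstream of a start, CG3609/CG15390, CG32276/gry and Dref/RpL13 lay 1 bp from it. Just downstream, and so not members, lay summits at CG4360/Sirt2 (1 bp), Pex23/SCCRO4 (2 bp, signal 10.1) and CG8841/garz (4 bp). The pair Pex23/SCCRO4 did hold a member at another, stronger summit (signal 163).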

How the data were processed

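The deposited peak lists are intervals in a narrowPeak layout on build dm6, per the labels. Each replicate had its peaks ranked in full and thresholded by IDR, the irreproducible discovery rate, which scores how well peak ranks repeat between sets of peaks, and the series had a less strict and a conservative thresholded list. The signal and the score of each peak are the authors' deposited values, with no stated scaling, so signal was compared within a list only and the score (at least 830 in the conservative list) was not used. Aligner, peak caller and read depth: not given in the sources used here. A further 20 columns of per-sample values matched no sample label and were left out.

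Start sites were those of all transcripts in Ensembl release 115 (BDGP6.54), without 5896 transposable element entries, which left 18277 genes on the arms, 13968 of them protein-coding. No interval ran past an arm's end in the RefSeq release of the same assembly, from which the sequences were read. A member belonged to the 2 start sites, and so to the gene pair, with the smallest summed distance to its summit. For shares of pairs, spacing was the smallest distance between opposite starts of the 2 genes. For positions and signals of members, it was the distance between the member's own 2 start sites, which can be wider. Motifs were searched as exact letters, N standing for any base, on both strands. Shares have exact (Clopper-Pearson) 95% intervals and differences Newcombe 95% intervals, which cover counting error only. With 1 group of 2 replicates no test between conditions was possible. Tables were made with pandas 2.3.3, intervals with SciPy 1.17.1 and NumPy 2.4.6 and plots with matplotlib 3.10.9 in Python 3.11.15, and the classification was tested on simulated peaks.

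The members, motifs and gene classes were chosen with earlier results of these data known, and the comparisons of X, of spacing over 200 and up to 300 bp and of members split by signal were chosen after their values were seen. Shares of 6-base words were also looked at and are not reported. Genes were named by rule: the 20 strongest members, the strongest 2 of each gene class and of each motif that differed, the 5 strongest double pairs and the members at the rule's limits. Others, the leading X pairs and Fer1HCH/Fer2LCH among them, were named after their values were seen.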

Additional observations from a re-analysis of the deposited data

How the results depend on the processing

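No paired analysis was possible because there was 1 group. No value whose interval left out 0 changed sign. The share of peaks that are members (16.3%) was 13.5% in the less strict list, 14.5% to 16.5% when either replicate was left out, 19.2% among peaks above the median signal, 9.52% and 20.4% with limits of 300 and 1000 bp, and 13.04% with 1 start per gene. The share of pairs with a member (16.8%) was 13.2% to 13.5% when either replicate was left out, 10.3% above the median signal, 14.9% at 300 bp and 15.0% with 1 start per gene. Summits between both starts were 95.1% at 300 bp and 100% with 1 start per gene. The ratio of median signal to single promoters (1.07) was 1.22 in the less strict list, 1.05 to 1.08 when either replicate was left out, 0.927 above the median signal (the other direction), 1.18 at 300 bp, 1.04 at 1000 bp and 1.10 with 1 start per gene. Members in both replicates' lists (58.6%) became 84.9% above the median signal, 65.0% at 300 bp and 90.8% by the best 5000 ranks. Genes of the 16 classes with a member were 13.6% above the median signal. The difference of DRE shares between the strongest and weakest 87 members fell to -5.88 points (-18.1 to 5.95) above the median signal. Of the 9 motifs that differed from single promoters, 4 did at 300 bp and 2 with 50 bp on both sides of the summit. Across 11 alternatives the A6 run lost its call in 8, Ohler motif 8 in 6, the E-box in 4, motif 7 in 3, the DRE and the BEAF-32 site in 2, and GAGA, TATA and the homeodomain site in 1 each. The initiator gained one in 5, both lists of a single replicate among them, Ohler motif 6 in 1 (5.13 points without replicate 2) and Ohler motif 1 in 1 (7.60 points with 200 bp). Among motifs with no call, signs changed for Ohler motif 1 (1.87 to -0.308 with 50 bp), the Zelda site (-0.806 to 0.583 with 200 bp) and the GATA site (-0.297 to as much as 1.94 with 1000 bp limits). Without replicate 2 the E-box went from 4.56 to 11.7 points, motif 7 from 6.17 to 10.99, the A6 run from 6.76 to 1.88 and motif 8 from -5.52 to -3.08. The lower share on X and the higher share at over 200 and up to 300 bp kept intervals without 0 in all 9 alternatives run. The depth behind the lists is unknown, so a pair without a peak is not shown to be unbound.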
